A study of Mus musculus with 6 samples.

Results

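Mitochondrial fission and fusion genes were followed in the postischemic kidney of mice with and without the cytokine LIGHT, and 10 of 10 were found among the 13026 genes of the deposited table by exact gene symbol. The fission members were Dnm1l, Fis1, Mff, Mief1, Mief2 and Mtfp1, 6 genes in all. The 4 fusion members were Mfn1, Mfn2, Opa1 and Oma1. No member passed the test between the genotypes, which 0.117% of all genes tested did. The levels of 9 of 10 overlapped between knockout and wild type libraries, while 16.6% of all genes tested had no overlap in either direction. Mtfp1, the exception, was 1.27-fold higher in the knockout on the log2(FPKM + 1) scale. Its p in limma was 0.0249 before correction for the number of genes tested and 0.592 after it. The balance of fission to fusion genes differed by less than the spread between libraries.

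Mitochondria form a network that is cut and joined without pause. Division needs DRP1, the cytosolic dynamin-like GTPase made from Dnm1l, which is drawn to the outer membrane by receptors such as MFF, MiD51 and MiD49 and, less clearly in mammals, FIS1. Joining of outer membranes is done by the mitofusins MFN1 and MFN2, and joining of inner membranes by OPA1, which inner membrane proteases, OMA1 among them, cut into shorter forms under stress. The tubule cells of the kidney, those of the proximal tubule above all, are rich in mitochondria, and fragmentation of their network after ischemia is well known from rodent models.

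The kidneys of LIGHT knockout mice (LIGHT-/-; LIGHT is the TNF family cytokine TNFSF14) gave 3 libraries and those of wild type mice (LIGHT+/+) gave 3, and all the mice were adult males of the C57BL/6J strain background. The mice of both genotypes had both kidneys made ischemic for 32 min and then reperfused for 24 h, and uninjured kidneys were not analysed here. Tnfsf14 was not analysed here either, which leaves the genotype labels without a check on their own target. The values are FPKM (fragments mapped to a gene, scaled by transcript length and by the mapped fragments of the library), which can be compared between genes because they are scaled by length. Depth is unknown, since FPKM carry no read counts.

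Knockout library 3 stood apart. Across genes, Pearson r between it and each of the other 5 was 0.934 to 0.956, and between pairs of those 5 it was 0.976 to 0.989. In that library 9 tubular injury genes summed to 1784 FPKM, against 5065 and 6224 in the other knockout libraries and 6004 to 6679 in wild type. The sum of 10 proximal tubule genes was 2388 FPKM there, against 1151 and 1298 in the other knockout libraries and 883 to 1060 in wild type. Adipocyte genes were also high in it. The 5 genes of that list summed to 67.0 FPKM, against 12.8 and 18.9 in the other knockout libraries and 13.8 to 21.3 in wild type, and Adipoq, which encodes adiponectin, had 13.1 FPKM there and at most 0.0659 in any other library. Collecting duct genes summed to 420 FPKM in it, against 80.2 and 131 in the other knockout libraries and 85.4 to 152 in wild type. Podocyte genes summed to 81.4 to 82.4 FPKM in knockout libraries and 92.0 to 108 in wild type. Neutrophil genes were lowest in it, with 6 genes that summed to 20.6, 45.1 and 65.5 FPKM in knockout libraries 3, 1 and 2 and to between 63.1 and 95.5 in wild type. In whole tissue, fewer cells of a type and less RNA per cell cannot be told apart.

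The members lie on 7 chromosomes of the mouse build mm10 and are protein-coding. Dnm1l and Opa1 share chromosome 16, at 16312230 to 16358959 and 29579334 to 29654884. Mief2 (60728398 to 60732951) and Mtfp1 (4091480 to 4095445) share chromosome 11, and Mfn2 (147873599 to 147904704) and Oma1 (103313812 to 103371868) share chromosome 4. Fis1 lies on chromosome 5 at 136953275 to 136966234, Mff on chromosome 1 at 82724890 to 82752394, Mief1 on chromosome 15 at 80234018 to 80253371 and Mfn1 on chromosome 3 at 32529465 to 32579239. Of the transcribed 31-base words of Dnm1l, 9.51% also occur in transcripts of other genes, among them an antisense gene at the same locus. What these shared words do to its level was not tested. The share was at most 2.71% for the other members and 0 for Fis1, Mtfp1, Opa1 and Oma1. The mitofusins can therefore be told apart, and so can the pair Mief1 and Mief2. Mief1 contains the separately annotated small coding gene AC140267.1, which was not used here, and Mff overlaps the opposite-strand gene C430014B12Rik, not used here either.

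Promoters of 3 members are shown, that of Mtfp1 because its levels separated the genotypes and those of Opa1 and Oma1 because they encode a substrate and its protease. Each is the RefSeq window of 300 bases in build GRCm38.p6, from 250 before the start site to 50 after it, 5′ to 3′ on the strand of the gene. All 10 members matched a RefSeq entry, and where there were several the one nearest the GENCODE start was taken. Capitals mark matches, on either strand, to the core site of NRF1 or to the GC box GGGCGG. NRF1 is a transcription factor of many nuclear genes for mitochondrial proteins. The Mtfp1 window, chr11:4095382-4095681 on the minus strand, held no match to either:
Mtfp1: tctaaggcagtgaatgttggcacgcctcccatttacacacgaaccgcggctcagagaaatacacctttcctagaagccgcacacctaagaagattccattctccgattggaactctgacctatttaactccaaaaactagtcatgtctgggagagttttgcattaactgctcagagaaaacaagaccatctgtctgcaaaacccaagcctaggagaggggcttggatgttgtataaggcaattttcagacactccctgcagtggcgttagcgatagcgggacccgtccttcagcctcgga
The Opa1 window is chr16:29579084-29579383 on the plus strand:
Opa1: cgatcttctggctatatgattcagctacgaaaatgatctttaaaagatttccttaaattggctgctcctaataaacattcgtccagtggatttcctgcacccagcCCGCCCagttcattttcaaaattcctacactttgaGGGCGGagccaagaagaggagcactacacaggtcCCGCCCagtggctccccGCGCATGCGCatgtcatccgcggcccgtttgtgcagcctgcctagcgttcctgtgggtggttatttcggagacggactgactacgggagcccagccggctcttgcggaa
The Oma1 window is chr4:103313596-103313895 on the plus strand:
Oma1: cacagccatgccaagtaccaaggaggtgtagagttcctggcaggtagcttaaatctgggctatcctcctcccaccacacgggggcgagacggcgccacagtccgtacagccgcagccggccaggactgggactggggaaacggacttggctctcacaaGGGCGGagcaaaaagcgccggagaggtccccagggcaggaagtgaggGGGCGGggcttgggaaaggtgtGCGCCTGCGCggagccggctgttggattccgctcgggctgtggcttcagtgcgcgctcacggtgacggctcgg
The NRF1 core, the last run of capitals in the Opa1 and Oma1 windows, was found in 2 of the 10 members, Opa1 and Oma1, and in 4.63% of 32544 mouse promoter windows of the same length. GC boxes were found in 8 of the 10 members and in 35.9% of all windows, with Mtfp1 and Mfn2 the members without. The clock motifs were searched too. The E-box CACGTG occurred in Mief2 alone (7.17% of all windows) and the D-box TTATGTAA in no member (0.931% of all windows). The element AAGGTCA of estrogen-related receptors and the cAMP response element TGACGTCA were in no member either, against 4.71% and 1.80% of all windows. The Mtfp1 window was 48.7% G and C, the Opa1 window 53.3% and the Oma1 window 65.7%, against a median of 53.0% over all windows. A match describes the letters of the window and does not show binding.

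Levels spanned about an order of magnitude and the means had the same order in both genotypes. Over the 6 libraries Fis1 was highest, at a mean of 39.2 FPKM, above 89.6% of all genes in the table. Dnm1l and Mfn2 followed at 30.6 and 29.3 FPKM, with overlapping ranges, and Dnm1l was the higher of the pair in 4 of 6 libraries. Opa1 and Mfn1 came next, at 17.9 and 15.9 FPKM, and Opa1 was higher in 6 of 6 libraries although the ranges met. Oma1, Mtfp1, Mief1 and Mff formed a series of neighbours with overlapping ranges, at 11.1, 9.44, 7.65 and 6.48 FPKM. Mief2 was lowest, at 3.59 FPKM, below every value of the others and above 32.0% of all genes. The 4 fusion genes thus lay within a narrower span of levels, 11.1 to 29.3 FPKM, than the 6 fission genes.

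**Figure D1:**
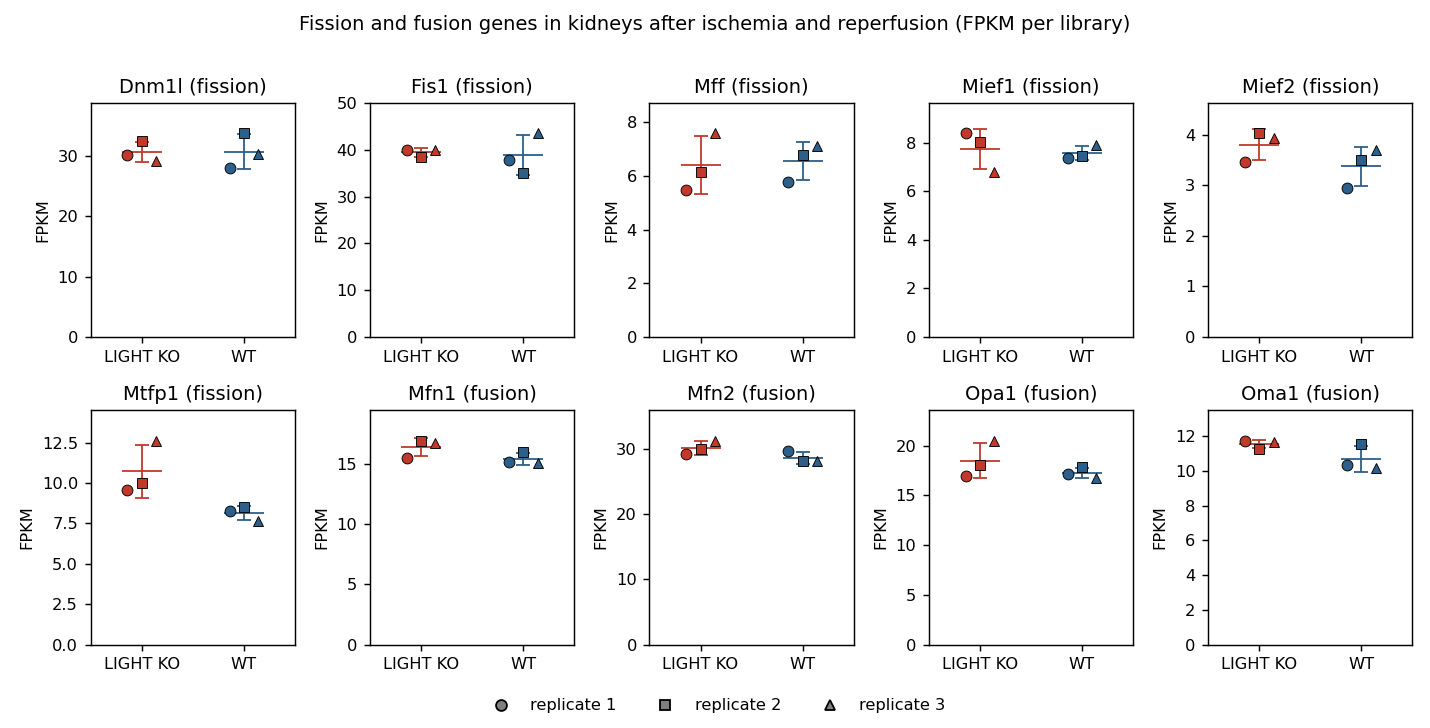
FPKM of the 10 members in each library, LIGHT knockout (red) left of wild type (blue), with 1 point per library, a horizontal line at the mean and bars of 1 SD (n = 3 each). Every vertical axis starts at 0. Mtfp1 is the panel whose 3 knockout points (9.55 to 12.6 FPKM) all lie above the wild type points (7.64 to 8.50 FPKM).

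The core of the fission machinery did not differ between the genotypes beyond the spread of the libraries. Dnm1l, the GTPase that constricts the organelle, had 30.2, 32.4 and 29.2 FPKM in knockout libraries 1 to 3, against 27.9, 33.7 and 30.4 in wild type libraries 1 to 3. The knockout values lay inside the wild type range. Its mean was 30.6 ± 1.63 FPKM in knockout and 30.7 ± 2.90 in wild type (SD, n = 3 each), and the log2 fold change was -0.00096 ± 0.10 (SE; limma adjusted p = 0.998), on the log2(FPKM + 1) scale used for every fold change here, which understates the change of low genes. The 95% interval reached from -0.24 to 0.24, or from 0.846-fold to 1.18-fold, so larger differences in either direction lie outside it and smaller ones cannot be told from none.

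The receptors that bring DRP1 to the membrane did not separate the genotypes. Fis1, a small tail-anchored protein of the outer membrane, had 40.0, 38.4 and 40.1 FPKM in knockout kidneys, against 37.9, 35.1 and 43.5 in wild type kidneys. The wild type libraries spread to both sides of the knockout. Mff, the mitochondrial fission factor, had 5.47, 6.17 and 7.59 FPKM in knockout, against 5.76, 6.79 and 7.12 in wild type. It was the member with the widest interval of difference, from -0.36 to 0.29 on the log2 scale, and knockout libraries 1 and 3 held both its lowest and its highest value.

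Mief1 and Mief2 encode the related adaptors MiD51 and MiD49. Mief1 had 8.38, 8.01 and 6.81 FPKM in knockout, against 7.35, 7.45 and 7.90 in wild type, and knockout library 3 was the lowest of all. Mief2 had 3.45, 4.02 and 3.94 FPKM in knockout, against 2.94, 3.49 and 3.69 in wild type, so that 2 knockout libraries exceeded every wild type library and the third did not. Log2 fold changes were 0.028 ± 0.10 for Fis1, -0.034 ± 0.14 for Mff, 0.024 ± 0.10 for Mief1 and 0.14 ± 0.11 for Mief2 (SE; limma adjusted p = 0.938, 0.946, 0.949 and 0.705).

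Mtfp1 (MTP18), an inner membrane protein whose loss gives elongated mitochondria in cultured cells, had the widest gap between the genotypes. It had 9.55, 10.02 and 12.6 FPKM in knockout libraries 1 to 3, against 8.30, 8.50 and 7.64 in wild type libraries 1 to 3. Every knockout library was above every wild type library, which held for 1 of the 10 members and for 7.76% of all genes tested, so a single such member is near the background. Counting both directions, 16.6% of all genes had groups without overlap. The means were 10.7 ± 1.65 and 8.15 ± 0.452 FPKM in knockout and wild type (SD, n = 3 each). The log2 fold change was 0.35 ± 0.12 (SE) with a 95% interval of 0.06 to 0.64, unadjusted p = 0.0249 and limma adjusted p = 0.592. At an unadjusted p under 0.05, 1 of the 10 members and 8.08% of all genes passed, 4.34% of all genes with the knockout higher. No member and 0.117% of all genes, 15 of 12836, passed after Benjamini-Hochberg adjustment in limma. Without knockout library 3 the log2 fold change of Mtfp1 was 0.24 (limma adjusted p = 0.694) and the groups still did not overlap.

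The order of the knockout libraries in Mtfp1 was also that of the proximal tubule sum and the reverse of that of the injury sum. Spp1 made up most of the injury sum, with 4691, 3639 and 1322 FPKM in knockout libraries 1 to 3. Single genes did not all follow the sums: Krt8 was highest in knockout library 2, and Slc22a6 of the proximal tubule list was highest in knockout library 1. Mtfp1 and the proximal tubule sum (1151, 1298 and 2388 FPKM) were highest in knockout library 3 and lowest in knockout library 1, where the injury sum (6224, 5065 and 1784 FPKM in libraries 1 to 3) was highest. Among the knockout libraries this order was not particular to the proximal tubule. Sums of thick ascending limb and distal tubule genes (451, 562 and 890 FPKM) and of endothelial genes (51.8, 63.4 and 75.1 FPKM) had it too. So did the collecting duct, podocyte and adipocyte sums, while the neutrophil and macrophage sums did not. Of the 10 proximal tubule genes, 9 had a positive log2 fold change with a median of 0.65, and of the 9 injury genes 8 had a negative one with a median of -0.68, while 0 of either list passed the adjusted test. The wild type libraries, with sums of 883 to 1060 FPKM for the proximal tubule genes, were lower than any knockout library, as for Mtfp1. In wild type libraries 1 to 3 that sum was 981, 1060 and 883 FPKM, the order of Mtfp1 there (8.30, 8.50 and 7.64 FPKM). The podocyte sum had this wild type order too (93.2, 108 and 92.0 FPKM), and the injury sum its reverse (6377, 6004 and 6679 FPKM). The thick ascending limb and distal tubule, endothelial, collecting duct and adipocyte sums had other orders in wild type. The part of cell makeup, of injury or of the adipocyte genes of knockout library 3 in the Mtfp1 difference was not tested.

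**Figure D2:**
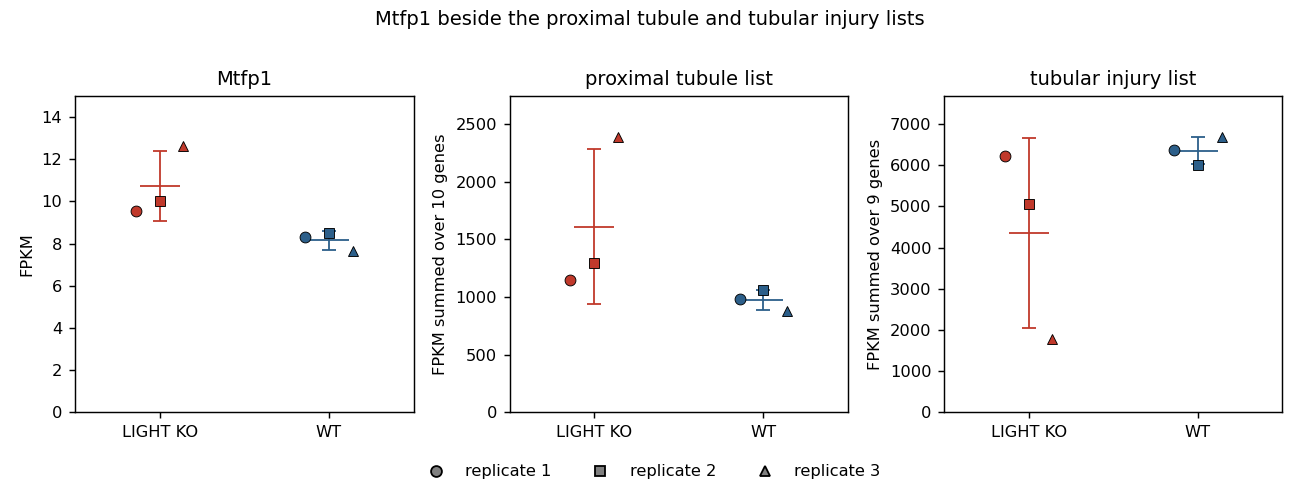
Mtfp1 in FPKM (left) beside the summed FPKM of 10 proximal tubule genes (middle) and of 9 tubular injury genes (right), LIGHT knockout left of wild type, 1 point per library with the mean and 1 SD (n = 3 each). Knockout library 3 (triangle) is highest for Mtfp1 at 12.6 FPKM and for the tubule sum at 2388, and lowest for the injury sum at 1784.

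All 4 fusion genes had slightly higher means in the knockout, by 1.05-fold to 1.08-fold, and none passed the test. Mfn1, a mitofusin that tethers outer membranes, had 15.5, 17.0 and 16.8 FPKM in knockout, against 15.2, 16.0 and 15.1 in wild type. Mfn2, which also links mitochondria to the endoplasmic reticulum, had 29.1, 29.9 and 31.2 FPKM in knockout, against 29.6, 28.0 and 28.0 in wild type. For both, 2 knockout libraries were above every wild type library and knockout library 1 lay within the wild type range.

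Opa1, the GTPase of inner membrane fusion and cristae shape, had 17.0, 18.1 and 20.5 FPKM in knockout, against 17.2, 17.8 and 16.8 in wild type. The distance rested on knockout library 3, without which the log2 fold change was 0.021 in place of 0.093. Oma1, the stress-activated protease that cuts OPA1, had 11.7, 11.3 and 11.7 FPKM in knockout, against 10.3, 11.5 and 10.2 in wild type, with wild type library 2 among the knockout values. Log2 fold changes were 0.085 ± 0.08 for Mfn1, 0.072 ± 0.08 for Mfn2, 0.093 ± 0.10 for Opa1 and 0.11 ± 0.09 for Oma1 (SE; limma adjusted p = 0.744, 0.772, 0.759 and 0.709). The upper ends of their 95% intervals were 0.26 to 0.32 and the lower ends were -0.14 to -0.10.

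**Figure D3:**
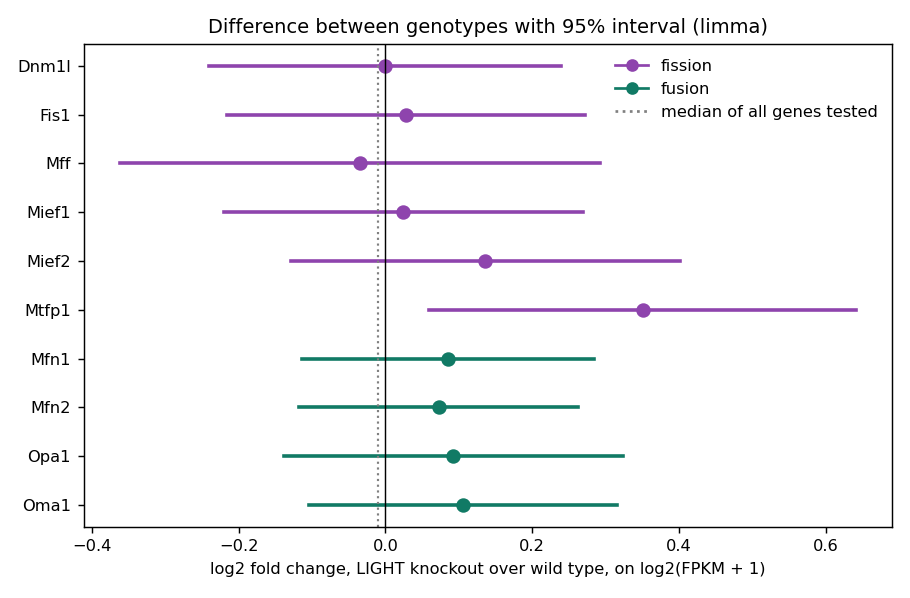
Log2 fold change of each member, LIGHT knockout over wild type, with its 95% interval from limma, fission genes in purple and fusion genes in green, and a dotted line at the median of all 12836 genes tested (-0.0097). The intervals of 9 members include 0, that of Mtfp1 reaches from 0.06 to 0.64 without correction for the number of genes, and the 4 fusion estimates lie close together at 0.072 to 0.11.

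Set against each other, the fission and fusion genes showed no shift of balance beyond the spread. The median log2 fold change was 0.026 over the 6 fission genes (range -0.034 to 0.35) and 0.089 over the 4 fusion genes (range 0.072 to 0.11), beside -0.0097 over all genes tested. The order of the 2 medians was not stable: the fission median was the higher without knockout library 3 (0.067 for fission and 0.058 for fusion), without wild type library 3 (0.082 and 0.072) and with library weights (0.068 and 0.057). Without wild type library 1 the fission median was 0.0095, without wild type library 2 it was 0.041, and without knockout library 1 it was 0.039. A positive log2 fold change was seen for 4 of 6 fission genes, for 4 of 4 fusion genes and for 47.9% of all genes tested. Per library, the mean log2(FPKM + 1) of the fission genes was 3.63, 3.69 and 3.74 in knockout libraries 1 to 3, against 3.53, 3.62 and 3.66 in wild type libraries 1 to 3. That of the fusion genes was 4.20, 4.25 and 4.31 in knockout, against 4.16, 4.21 and 4.13 in wild type. The ranges of the genotypes met in both classes.

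The fission mean minus the fusion mean was -0.57, -0.55 and -0.58 in the knockout libraries, against -0.63, -0.58 and -0.46 in the wild type libraries, all on the log2 scale. The knockout values lay within the wild type range, and the difference of -0.0048 between the genotypes was small beside the pooled SD of 0.06. Without Mtfp1 the difference between the genotypes was -0.06 (pooled SD 0.08), and without Oma1, a protease and not itself a fusion protein, it was 0.00062 (pooled SD 0.06). In linear terms the summed FPKM of the fission genes was 1.29 ± 0.0360 times that of the fusion genes in knockout and 1.32 ± 0.0949 times in wild type (SD, n = 3 each). No test was made of these scores, because the members were chosen with results of these data known.

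**Figure D4:**
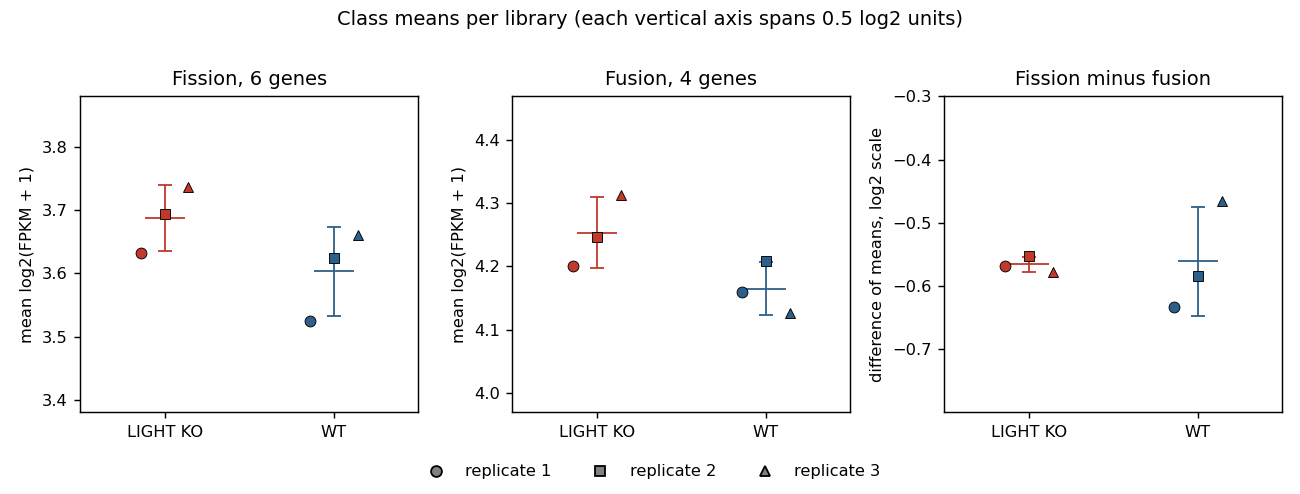
Mean log2(FPKM + 1) per library of the 6 fission genes (left) and the 4 fusion genes (middle), and their difference (right), LIGHT knockout left of wild type, with the mean and 1 SD (n = 3 each). All panels span the same range of the log2 scale, and in the right panel the knockout libraries (-0.58 to -0.55) lie inside the spread of the wild type libraries (-0.63 to -0.46).

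Ratios between partners within each class differed by less than the pooled SD of the libraries. Mfn2 had 1.83 ± 0.0579 times the FPKM of Mfn1 in knockout and 1.85 ± 0.0998 times in wild type (SD, n = 3 each). Opa1 stood at 1.60 ± 0.152 times Oma1 in knockout and 1.62 ± 0.0633 times in wild type. Yme1l1, which encodes the other main protease that cuts OPA1, stood at 1.49 ± 0.148 times Oma1 in knockout and 1.56 ± 0.0475 times in wild type. Each of these differences was smaller than the pooled SD. The ratio of Yme1l1 to Oma1 was 0.07 lower in knockout, which is more than its wild type SD of 0.0475 and less than its pooled SD of 0.11.

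On the fission side, Dnm1l had 0.533 ± 0.0365 times the summed FPKM of its receptors Fis1, Mff, Mief1 and Mief2 in knockout and 0.548 ± 0.0792 times in wild type. Fis1 had 6.27 ± 1.01 times the FPKM of Mff in knockout and 5.95 ± 0.714 times in wild type. Mief1 had 2.43, 1.99 and 1.73 times the FPKM of Mief2 in knockout libraries 1 to 3, against 2.50, 2.13 and 2.14 times in wild type libraries 1 to 3. Knockout library 3 had the lowest ratio, and the groups overlapped.

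Relative to genes for other mitochondrial proteins, the fusion genes separated the genotypes, which they did not in FPKM. The reference was the mean log2 FPKM of 14 genes of outer membrane channels, protein import and matrix, among them Vdac1, Tomm20 and Cs. That mean was 5.59, 5.61 and 5.51 in the knockout libraries, against 5.67, 5.67 and 5.59 in the wild type libraries, 0.07 lower in the knockout, and 0 of the 14 genes passed the adjusted test. As a log2 ratio to it, every knockout library exceeded every wild type library in 5 of 10 members, Mtfp1 and the 4 fusion genes, against 11.8% of all genes on the same scale. Every knockout library was lower in 0 members and in 4.57% of all genes. The other 5 fission genes overlapped. The log2 ratio of Oma1 was -2.04, -2.12 and -1.97 in knockout, against -2.30, -2.14 and -2.24 in wild type. That of Mfn1 was -1.63, -1.53 and -1.44 in knockout, against -1.74, -1.67 and -1.67 in wild type. The gaps between the nearest libraries were narrow, and the log2 ratios differed between the genotypes by 0.15 to 0.19 for the fusion genes and by 0.46 for Mtfp1. Without knockout library 3 the differences were 0.063 for Opa1, 0.089 for Mfn2, 0.11 for Mfn1, 0.15 for Oma1 and 0.31 for Mtfp1. The 4 genes share their libraries and their reference, so they are not independent, and the part of cell makeup in this separation was not tested. With values scaled to this reference, limma again called 0 of 10 members, and 4 of the 14 reference genes had a positive log2 fold change in FPKM. The median log2 fold change over all genes tested was 0.048 with this scaling, against -0.0097 in FPKM. The scaling thus moved genes in general toward higher values in the knockout.

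The wider pathway showed no common direction. Outside the members, 5 lists held 55 genes, of which 52 were tested, 25 with a positive and 27 with a negative log2 fold change (median -0.02). None passed the adjusted test in limma in either direction, against 0.117% of all genes tested. An unadjusted p under 0.05 in limma was seen for 2 of the 52, against 8.08% of all genes tested. Groups did not overlap in 4 genes that were higher (Mtfr1, Bcl2l1, Apoo and Rhot1) and 4 that were lower in the knockout (Pgam5, Msto1, Huwe1 and Mtx2), against 7.76% and 8.8% of all genes tested.

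Among 20 fission accessory genes and regulators of DRP1, 7 had a positive log2 fold change and the median was -0.05. Mtfr1, a mitochondrial fission regulator, had 21.6, 23.7 and 24.8 FPKM in knockout, against 19.5, 20.4 and 17.7 in wild type (log2 fold change 0.27 ± 0.10 SE, limma adjusted p = 0.592). Pgam5, a mitochondrial phosphatase that can act on DRP1, had 14.4, 15.5 and 10.6 FPKM in knockout, against 15.9, 15.8 and 16.0 in wild type (adjusted p = 0.629 in limma). Mul1, a ubiquitin and SUMO ligase of the outer membrane, averaged 8.59 ± 1.98 FPKM in knockout and 10.9 ± 0.461 in wild type (SD, n = 3 each; limma adjusted p = 0.595).

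Of 7 accessory genes of outer membrane fusion, 3 had a positive log2 fold change and the median was -0.05. Msto1, which encodes the cytosolic fusion factor misato, had 3.69, 4.15 and 2.77 FPKM in knockout, against 4.57, 5.09 and 4.50 in wild type (log2 fold change -0.35 ± 0.14 SE, limma adjusted p = 0.592). Its groups did not overlap. Huwe1, a ubiquitin ligase of mitofusins, averaged 19.0 ± 0.517 and 20.1 ± 0.263 FPKM in knockout and wild type (limma adjusted p = 0.741). Miga2, listed under its older symbol Fam73b, averaged 5.22 ± 0.889 FPKM in knockout and 3.85 ± 1.14 in wild type (limma adjusted p = 0.613), and Bcl2l1, which encodes BCL-xL, averaged 20.2 ± 2.31 and 17.9 ± 0.482 in knockout and wild type (limma adjusted p = 0.640).

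None of the genes listed around OPA1 passed the test. Of 9 inner membrane and matrix protease and prohibitin genes, 6 had a positive log2 fold change with a median of 0.02. Yme1l1 averaged 17.2 ± 1.52 FPKM in knockout and 16.7 ± 0.689 in wild type (limma adjusted p = 0.897). Spg7, a subunit of the matrix-facing AAA protease, averaged 14.5 ± 0.882 and 13.0 ± 1.84 FPKM in knockout and wild type (adjusted p = 0.704 in limma), and the scaffold prohibitin Phb2 averaged 45.6 ± 4.08 and 49.4 ± 2.91 (adjusted p = 0.723 in limma). Clpp and Afg3l1, the remaining genes of this list named by rule, had limma adjusted p of 0.801 and 0.882.

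Of 10 genes of cristae junctions and their outer membrane contacts, 7 had a positive log2 fold change with a median of 0.08. Apoo, a subunit of the cristae junction complex MICOS, had 41.1, 39.9 and 52.1 FPKM in knockout, against 36.1, 38.7 and 32.8 in wild type (log2 fold change 0.29 ± 0.13 SE, limma adjusted p = 0.592), and its groups did not overlap. Mtx2, an outer membrane metaxin, had 19.0, 18.9 and 17.8 FPKM in knockout, against 19.97, 22.3 and 21.7 in wild type (limma adjusted p = 0.595), also without overlap. Minos1 and Samm50 overlapped, with limma adjusted p of 0.654 and 0.844. In the list of 6 genes of mitochondrial transport along microtubules, 2 had a positive log2 fold change. Rhot1, the GTPase Miro1 that links mitochondria to motors, averaged 11.2 ± 0.262 FPKM in knockout and 10.2 ± 0.478 in wild type (adjusted p = 0.658 in limma), while its relative Rhot2 averaged 14.6 ± 0.360 and 15.3 ± 0.563 (adjusted p = 0.806 in limma). Trak2 and Kif5b had limma adjusted p of 0.781 and 0.715.

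Genes with the most similar course over the 6 libraries were sought among 11802 genes of at least 1 FPKM, as a description. The mean standardised level of the fission genes was followed most closely by Pofut1, Mbnl2 and Ncapd3, with Pearson r of 0.992, 0.985 and 0.983 over 6 libraries. That of the fusion genes was followed most closely by Hsd3b3, Mcur1 and Nus1, with r of 1.00, 0.994 and 0.993. Mcur1, a regulator of mitochondrial calcium uptake, had 32.1, 38.5 and 47.1 FPKM in knockout libraries 1 to 3, against 29.1, 31.3 and 25.9 in wild type libraries 1 to 3. All of these points share libraries in which knockout library 3 stands apart, and r for Hsd3b3 without that library was also 1.00. The genes were picked as the best of 11802 over these same libraries, so high r values follow from the choice, with or without knockout library 3.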

How the data were processed

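The series measured whole-kidney RNA in 6 libraries, grouped by genotype from the sample titles. The labels do not say for each library that it came from a separate mouse, and p-values cover only the spread among the samples as given, which may be technical. The deposited FPKM per gene were made by the authors, and HISAT2, StringTie and the build mm10 are named, without versions, in the submitters' processing notes. The strand setting and annotation were not given in the sources used here. All 6 files of single libraries were identical to the joint table. The higher group mean was at least 0.5004 FPKM in every row, so lower genes are outside it. Depth is unknown.

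Genes averaging 0.5 FPKM or more were kept (12836, with 190 removed) and compared on log2(FPKM + 1) with limma 3.58.1 in R 4.3.3, with a mean-variance trend, two-sided p-values and Benjamini-Hochberg adjustment over all genes kept (threshold 0.05). The code was tested on simulated data. All members and lists were chosen with earlier results of these data known. Named pathway genes were the 2 of smallest p per list and direction, with Yme1l1 added, and 1 gene so named is not reported here. Genes of the marker and reference lists were named as examples. Positions and shared words are from GENCODE M21 and promoters from RefSeq. With 3 against 3 libraries an exact permutation test cannot go below 0.1, so none was used.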

Additional observations from a re-analysis of the deposited data

How the results depend on the processing

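No member passed the adjusted test under any of the 18 alternatives (other pseudocounts, filters, scalings and variance models, the replicate number as a block, and each library left out in turn). Mtfp1, Mief2 and the 4 fusion genes kept a positive log2 fold change under all 18, with 0.24 to 0.42 for Mtfp1 (limma adjusted p 0.152 to 0.845), 0.063 to 0.20 for Mief2 (lowest without wild type library 1), 0.064 to 0.15 for Mfn1, 0.047 to 0.14 for Mfn2 and 0.021 to 0.16 for Opa1 (both lowest without knockout library 3) and 0.047 to 0.17 for Oma1 (lowest with library weights). Dnm1l, Fis1, Mff and Mief1, all near 0, changed sign under some, and the cause was not tested. Dnm1l was at 0.039 under TPM scaling, 0.0075 under scaling by the median of log ratios, 0.0085 under upper quartile scaling, 0.067 under scaling to the mitochondrial reference list and 0.025 with library weights. Mff was at 0.00033 under TPM scaling and 0.027 under the mitochondrial scaling. With a library left out, Dnm1l ranged from -0.064 to 0.067, Fis1 from -0.039 to 0.11, Mff from -0.15 to 0.058 and Mief1 from -0.030 to 0.10. The genotype difference in fission minus fusion was -0.041 to 0.043 under the 12 alternatives that give one, and moved by less than the SD between libraries.

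Over all genes, the 15 calls became 52 with library weights and 0 with the replicate block, where 884 genes had an unadjusted p under 0.05, and 0 to 11 with a library left out (0 without knockout library 2, wild type library 1 or wild type library 3, 7 without knockout library 1 and 6 without wild type library 2). Same-numbered libraries showed no common pairing. Their residuals correlated over genes at 0.15, -0.13 and -0.019 for numbers 1, 2 and 3. The libraries of number 1 correlated best with each other, and not every library did so with its own number. Residuals of 3 libraries sum to 0 within each group, so these values cannot exclude a pairing. Depth limits on low genes cannot be given for FPKM.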
